A study of Saccharomyces cerevisiae with 19 samples.

Results

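The siderophore and reductive iron uptake genes examined here are ARN1, ARN2, ENB1, FRE2, FRE5 and FIT1 of Saccharomyces cerevisiae, 6 of the 4065 genes for which Sir3 binding could be averaged. They were taken by name for their role in iron acquisition, with earlier results of these data known. Counts over the 6 therefore do not stand for iron genes in general. The signal of each gene is that of the tiling probes inside its coding region. All 6 lie close to a chromosome end. ARN2 (YHL047C, chromosome 8, 8351 to 10213, Crick strand) is centred 9.28 kb from the left end, and FRE2 (YKL220C, chromosome 11, 9091 to 11226, Crick strand) 10.2 kb from the left end. ARN1 (YHL040C, chromosome 8, 19088 to 20971, Crick strand) is centred 20.0 kb from the left end, and ENB1 (YOL158C, chromosome 15, 19491 to 21311, Crick strand) 20.4 kb from the left end. FIT1 (YDR534C, chromosome 4, 1503314 to 1504900, Crick strand) is centred 27.6 kb from the right end, and FRE5 (YOR384W, chromosome 15, 1061564 to 1063648, Watson strand) 28.3 kb from the right end. These gene coordinates are those of assembly R64. The array held 40 probes inside the 6 coding regions, of which 39 had a value on every array, and 34 of these lay far enough from the gene's ends to be averaged.

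Budding yeast takes up iron by a reductive route and by siderophores. In the reductive route, ferric reductases of the FRE family reduce iron at the cell surface, and the multicopper oxidase Fet3 with the permease Ftr1 carry it across the plasma membrane. Siderophores are small chelators made by other microbes. The cell wall mannoproteins Fit1, Fit2 and Fit3 help to retain them, and the ARN family of transporters (Arn1, Arn2, Sit1 and Enb1) takes the iron complexes up. The silencing proteins Sir2, Sir3 and Sir4 spread inward from telomeres: Sir2 deacetylates the tail of histone H4, and Sir3 binds the deacetylated tail. Dot1 methylates histone H3, and nicotinamide inhibits Sir2.

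Sir3 binding was measured by chromatin immunoprecipitation on 19 arrays with 2 colours. Cells in exponential growth in rich medium (YPD) were fixed with formaldehyde, DNA precipitated with an antibody against Sir3 carried the dye Cy5, and input DNA from whole cell extract carried Cy3. Every strain carried RAP1 fused to GFP at its own locus, as rap1::GFP-RAP1(LEU2) in WT and the strains derived from it and in yAT2476, and as rap1::RAP1-GFP(LEU2) in the others. WT (yAT191, 2 arrays) also had ade2-1::ADE2, a left end of chromosome 7 replaced at adh4 by URA3-4xUASG-(C1-3A)n, and ppr1Δ::HIS3. The pGPD-SIR3 strain (yAT1254, 2 arrays) added sir3::GPD-SIR3(NAT) to WT, so that SIR3 was expressed from the GPD promoter, and pGPD-SIR3-A2Q (yAT1256, 2 arrays) added sir3::GPD-sir3-A2Q(NAT), a point mutant of Sir3. The pADH-SIR3 (yAT2627, 2 arrays) and pTEF-SIR3 (yAT2629, 2 arrays) strains had ade2-1::ADE2, a deletion of HML marked by HPH, and SIR3 under the ADH or TEF promoter (NAT). This background is that of the pGPD-SIR3 strain yAT2554 (1 array), not that of WT. Another strain, yAT2476 (1 array), carried pGPD-SIR3 with the tagged RAP1 and no further listed allele. The pGPD-SIR2 strain (yAT1667, 1 array) had RDN1::ADE2 and sir2::GPD-SIR2(KanMX), and pGPD-SIR2 pGPD-SIR3 (yAT1668, 2 arrays) had sir3::GPD-SIR3(NAT) as well. In the NAM release group (2 arrays), yAT1254 was fixed 8 hours after transfer from medium with 5 mM nicotinamide to fresh YPD. The dot1 NAM release group (yAT3183, 2 arrays) was handled alike and also carried dot1::KANMx. Each strain is given as 1 strain number, and whether several clones were used was not given in the sources used here. A first deposit of 12 arrays and a later one of 7 were told apart by sample numbers alone. No label names them as batches.

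All values below are log2 ratios of precipitated over input DNA minus the median of all chromosomal probes of the same array, called log2 enrichment. A value of 0 is that of the typical probe and does not stand for absence of Sir3. Probes differ in how they hybridise, so levels are compared between groups at the same gene or bin, and levels of different genes or bins are given side by side only. Between 40247 and 41270 of 41480 chromosomal probes had a ratio on each array, and the number of arrays limits the precision. Differences were tested across all 4065 genes with limma and are given with their SE. They were called at a Benjamini-Hochberg adjusted p under 0.05. Nothing in the labels says that replicate arrays came from separate cultures, so p-values measure the spread between arrays, which may be technical. The SIR3 gene itself, read as a check of the labels, had a mean log2 enrichment of 0.25 in WT, 0.92 in pADH-SIR3, 3.32 in pTEF-SIR3, 3.97 in pGPD-SIR3, 2.62 in yAT2554, 2.94 in yAT2476, 2.78 with SIR2 and SIR3, 3.99 in NAM release, 2.87 in dot1 NAM release and 0.20 in pGPD-SIR2. In pGPD-SIR3-A2Q it read 0.35 and 0.74, a range that overlapped the 2 WT arrays (difference 0.30 ± 0.17, adjusted p = 0.329). The value is Sir3 binding at the gene, not its promoter or expression. On the A2Q arrays Sir3 signal was low elsewhere too, with COS8, the gene beside ARN2, at 0.58 against 4.46 in WT. A low value at SIR3 therefore cannot tell whether the GPD construct is present, and the A2Q arrays rest on their label. The replaced end of chromosome 7 had 41 to 43 of 48 probes without a value in the strains labelled with it, against 0 to 21 in the others. The 5 DOT1 probes had at most 1 missing value on any array, so the dot1 deletion rests on the label. The spread of probes more than 50 kb from every end, as a scaled MAD (median absolute deviation, scaled to equal an SD for a normal distribution), was 0.540 to 0.552 on the dot1 arrays and 0.268 to 0.392 on the 17 others. Replicate arrays correlated over all probes at 0.730 (pGPD-SIR3-A2Q) to 0.976 (dot1 NAM release), with WT at 0.743.

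**Figure D1:**
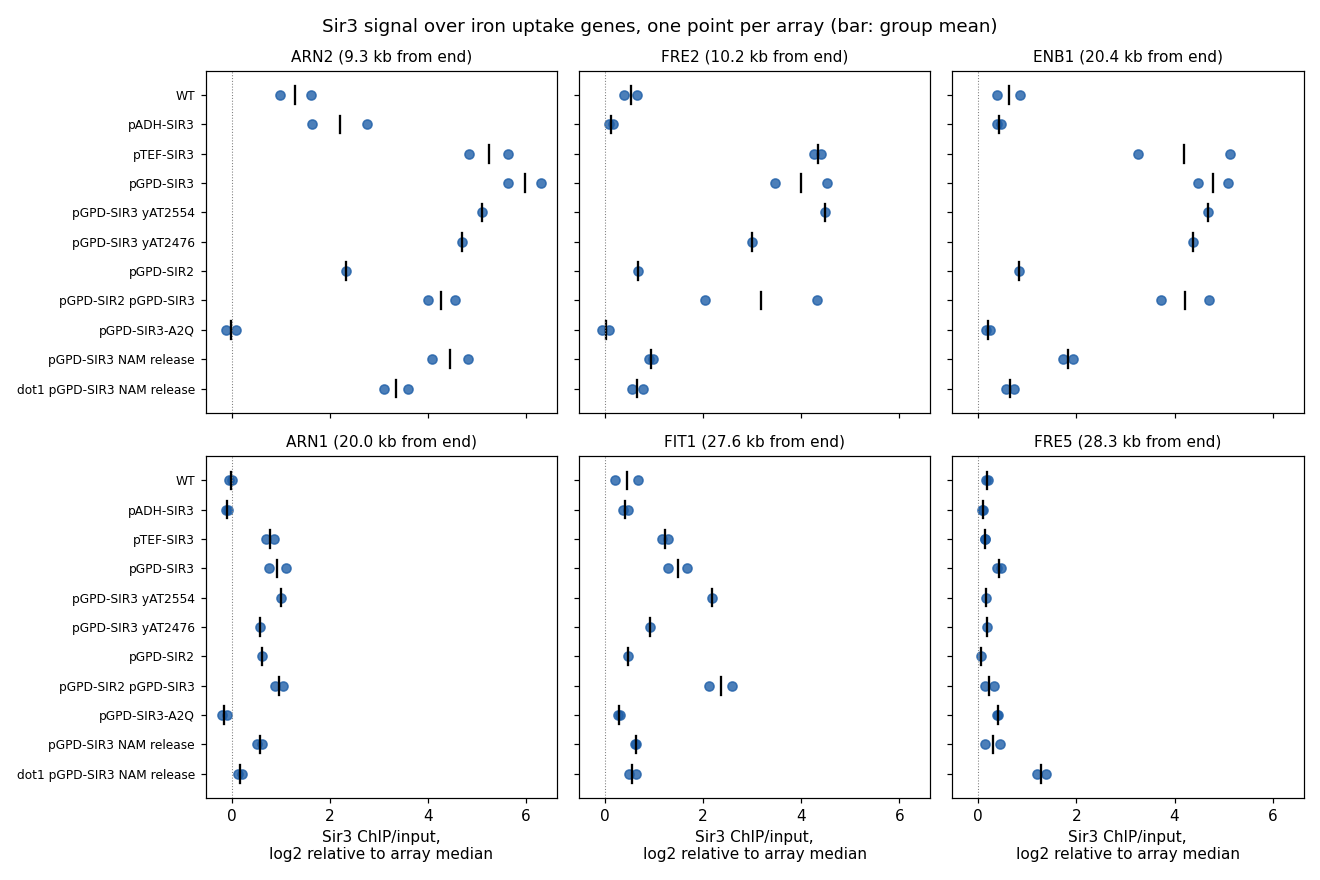
Log2 enrichment of Sir3 over each of the 6 genes (1 panel per gene, horizontal axis in log2 units) on every array of the 11 groups (vertical axis). Points are arrays and bars are group means. ARN2, ENB1 and FRE2 stood above 2 on all arrays of pTEF-SIR3, all pGPD-SIR3 strains and pGPD-SIR2 pGPD-SIR3, while FRE5 exceeded 1 only on the 2 dot1 arrays.

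The first question was how Sir3 occupancy of these genes changes with the promoter that drives SIR3. In WT, ARN2 (Arn2 imports triacetylfusarinine C) had a log2 enrichment of 1.61 and 0.98 on the 2 arrays, and the other 5 genes stayed under 1. With the TEF or the GPD promoter, 5 of the 6 genes rose over WT, and ARN2, ENB1 and FRE2 rose by more than 10-fold. With the ADH promoter none was called. FRE5 was not called in any of these comparisons. The comparisons with WT share the 2 WT arrays, and those with pTEF-SIR3 or pADH-SIR3 also differ from WT in strain background.

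Among the transporters, ARN2 stood at 2.76 and 1.64 in pADH-SIR3, 5.64 and 4.84 in pTEF-SIR3, and 6.30 and 5.64 in pGPD-SIR3. Both arrays of pADH-SIR3 lay above both WT arrays, though barely, while the pTEF-SIR3 and pGPD-SIR3 arrays lay far above. The difference from WT was 0.90 ± 0.40 in pADH-SIR3 (adjusted p = 0.323), 3.94 ± 0.40 in pTEF-SIR3 (15.4-fold, adjusted p = 3.5e-05) and 4.68 ± 0.40 in pGPD-SIR3 (25.6-fold, adjusted p = 7.89e-06). ENB1, which encodes the enterobactin transporter, stood at 0.86 and 0.38 in WT, 0.46 and 0.38 in pADH-SIR3, 5.12 and 3.25 in pTEF-SIR3, and 5.09 and 4.47 in pGPD-SIR3. WT and pADH-SIR3 overlapped, and every pTEF-SIR3 and pGPD-SIR3 array was above both. ENB1 was -0.20 ± 0.46 from WT in pADH-SIR3 (adjusted p = 0.891), and rose by 3.57 ± 0.46 in pTEF-SIR3 (11.9-fold, adjusted p = 0.00026) and 4.16 ± 0.46 in pGPD-SIR3 (17.9-fold, adjusted p = 6.57e-05).

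ARN1, which encodes a transporter of ferrichrome-type siderophores, lies at nearly the same distance from its chromosome end as ENB1 but changed far less. It stood at 0.00 and -0.05 in WT, -0.12 and -0.07 in pADH-SIR3, 0.86 and 0.70 in pTEF-SIR3, and 1.10 and 0.75 in pGPD-SIR3. The pTEF-SIR3 and pGPD-SIR3 arrays overlapped with each other and were separate from WT and pADH-SIR3. The rise over WT was 0.81 ± 0.11 with pTEF-SIR3 (adjusted p = 0.000372) and 0.95 ± 0.11 with pGPD-SIR3 (1.94-fold, adjusted p = 9.05e-05), against -0.07 ± 0.11 with pADH-SIR3 (adjusted p = 0.816).

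Of the reductase genes, FRE2 (a plasma membrane ferric reductase) stood at 0.66 and 0.38 in WT, 0.09 and 0.16 in pADH-SIR3, 4.26 and 4.41 in pTEF-SIR3, and 4.53 and 3.47 in pGPD-SIR3. The arrays with the TEF and GPD promoters overlapped and stood far above the rest. FRE2 rose by 3.81 ± 0.52 in pTEF-SIR3 (14-fold, adjusted p = 0.000372) and by 3.48 ± 0.52 in pGPD-SIR3 (11.2-fold, adjusted p = 0.000819). In pADH-SIR3 it was -0.40 ± 0.52 from WT (adjusted p = 0.776). FRE5, a putative ferric reductase, stood at 0.20 and 0.17 in WT, 0.08 and 0.09 in pADH-SIR3, 0.14 on both pTEF-SIR3 arrays, and 0.38 and 0.45 in pGPD-SIR3. All 8 values lay within 0.5 of the typical probe. The pGPD-SIR3 arrays were above WT by 0.24 ± 0.10, with a 95% interval of 0.02 to 0.46 and an adjusted p of 0.218. The pTEF-SIR3 difference was -0.04 ± 0.10 (95% interval -0.26 to 0.18, adjusted p = 0.849).

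FIT1, the cell wall mannoprotein gene, stood at 0.68 and 0.20 in WT, 0.36 and 0.47 in pADH-SIR3, 1.15 and 1.27 in pTEF-SIR3, and 1.67 and 1.29 in pGPD-SIR3. The pADH-SIR3 arrays fell within the WT range, and the arrays with stronger enrichment did not reach down to it. FIT1 rose by 0.77 ± 0.17 in pTEF-SIR3 (adjusted p = 0.0129) and by 1.04 ± 0.17 in pGPD-SIR3 (2.05-fold, adjusted p = 0.00191). The pTEF-SIR3 call was lost without WT replicate 2 (adjusted p = 0.0914), without pTEF-SIR3 replicate 2 (adjusted p = 0.112) and with the first deposit of arrays alone (adjusted p = 0.249).

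The 5 of 6 genes called higher in pTEF-SIR3 compare with 7.77% of all genes called higher and 0.886% lower, and the 5 of 6 in pGPD-SIR3 with 6.45% higher and 0.935% lower. In pADH-SIR3, limma called 0 of 6 against 0.713% of all genes higher and 0.148% lower, and 1 member had an unadjusted p under 0.05. The median difference over the 6 genes was 2.19 in pTEF-SIR3 and 2.26 in pGPD-SIR3, against 0.02 and 0.01 over all genes. Near the ends the background is higher: of 389 genes within 50 kb of an end, 26.2% rose in pTEF-SIR3 and 25.7% in pGPD-SIR3. Arrays that shared a slide, as far as file names give it, gave like values. On 1 such slide pTEF-SIR3 minus WT was 4.66 for ARN2, 4.74 for ENB1, 3.88 for FRE2, 0.91 for ARN1, 0.95 for FIT1 and -0.03 for FRE5. On another, pGPD-SIR3 minus WT was 4.69, 4.23, 3.87, 1.10, 0.99 and 0.19 in the same order.

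Within the same strain background, pTEF-SIR3 exceeded pADH-SIR3 at the same 5 genes, against 3.67% of all genes called higher and 0% lower. Among the 389 genes within 50 kb of an end, 19.8% were called higher. The differences were 4.21 ± 0.52 for FRE2 (adjusted p = 0.00039), 3.77 ± 0.46 for ENB1 (adjusted p = 0.00039), 3.04 ± 0.40 for ARN2 (adjusted p = 0.00059), 0.88 ± 0.11 for ARN1 (adjusted p = 0.000426) and 0.80 ± 0.17 for FIT1 (adjusted p = 0.0191). FRE5 differed by 0.05 ± 0.10 (adjusted p = 0.934). The FIT1 call was lost when any 1 of the 4 arrays was left out, with adjusted p from 0.0514 to 0.165, and with arrays scaled to one spread (adjusted p = 0.121). Each group had 1 array in either deposit: the difference in the first and the later one was 4.17 and 4.25 for FRE2, 4.67 and 2.87 for ENB1, 2.88 and 3.21 for ARN2, 0.99 and 0.77 for ARN1, and 0.79 and 0.80 for FIT1. With the first deposit alone, the ARN1 and FIT1 calls were lost (adjusted p = 0.0533 and 0.492). The step from pTEF-SIR3 to pGPD-SIR3 called 0 of 6 genes by limma, against 0.197% of all genes higher and 0.271% lower, and 1 member had an unadjusted p under 0.05. The 95% intervals were -0.14 to 1.60 for ARN2, -0.41 to 1.60 for ENB1, -1.45 to 0.79 for FRE2, -0.09 to 0.38 for ARN1, -0.11 to 0.64 for FIT1 and 0.06 to 0.50 for FRE5, so several of them allow a change of more than 2-fold. This step also changes the strain background. The yAT2554 array, which shares the background of pTEF-SIR3, read 5.10 for ARN2, 4.69 for ENB1, 4.48 for FRE2, 0.99 for ARN1, 2.18 for FIT1 and 0.16 for FRE5.

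**Figure D2:**
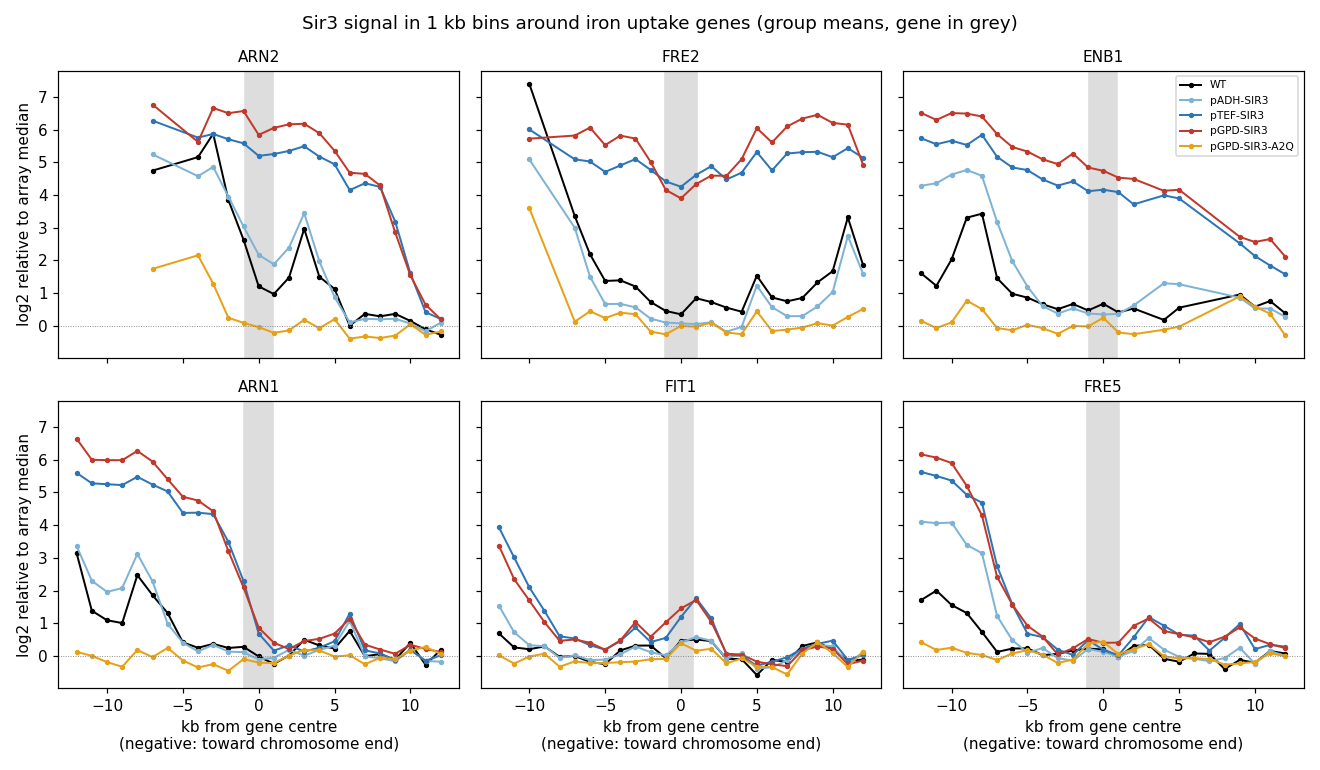
Mean log2 enrichment in bins of 1 kb within 12 kb of the centre of each gene, with the chromosome end to the left and the coding region in grey. Lines are WT, pADH-SIR3, pTEF-SIR3, pGPD-SIR3 and pGPD-SIR3-A2Q. ARN2, ENB1 and FRE2 lay inside stretches of high signal with the TEF and GPD promoters, ARN1 at the inner edge of one, and FRE5 beyond one.

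The position of each gene relative to these stretches differed. Around ARN1, the mean in pGPD-SIR3 was 4.43 at 3 kb toward the end, 3.21 at 2 kb, 2.10 at 1 kb, 0.87 over the gene and 0.41 at 1 kb inward. WT gave 0.37, 0.25, 0.28, -0.01 and -0.24 in the same bins. The gradient ran through the gene itself. The pGPD-SIR3 minus WT difference fell from 1.45 at the first ARN1 probe from the end (chr8:19242-19301, coordinates as in the files) to 0.76 at the last one (chr8:20739-20798). The inner neighbour EFM1, a lysine methyltransferase gene 0.812 kb away, stood at 0.36 in WT and 0.39 in pGPD-SIR3. ARN2 lay deep in the stretch. COS8, a COS family gene 0.805 kb toward the end, was already at 4.46 in WT and reached 6.59 in pGPD-SIR3 (adjusted p = 0.0201).

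FRE2 lay between 2 enriched neighbours, MCH2 (a homologue of monocarboxylate permeases) on the telomere side and COS9 on the centromere side. MCH2 went from 1.25 in WT to 5.58 in pGPD-SIR3 (adjusted p = 0.000732) and COS9 from 1.22 to 6.09 (adjusted p = 4.95e-06). Along this stretch pGPD-SIR3 read 5.82 at 4 kb toward the end, 3.90 over the gene and 6.45 at 9 kb inward, where WT gave 1.39, 0.35 and 1.33. For ENB1 the nearest measured genes were farther off, BDS1 (a sulfatase gene) 11.4 kb toward the end and HPF1 (a cell wall mannoprotein gene) 7.39 kb inward. BDS1 rose by 3.12 in pADH-SIR3 (adjusted p = 0.000976) and by 5.28 in pGPD-SIR3 (adjusted p = 2.7e-06). At 8 kb toward the end from ENB1 pADH-SIR3 read 4.59, against 0.35 over ENB1 itself, while pGPD-SIR3 read 6.40 and 4.74. HPF1 rose by 1.89 in pGPD-SIR3 (adjusted p = 0.00517).

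Around FRE5, pGPD-SIR3 read 4.30 at 8 kb toward the end, 2.42 at 7 kb, 1.58 at 6 kb, 0.93 at 5 kb and 0.41 over the gene, where WT gave 0.74, 0.13, 0.23, 0.24 and 0.21. YOR385W, 1.40 kb toward the end, stood at 0.09 in WT and 0.06 in pGPD-SIR3. FIT1 was set off from the end's signal in pGPD-SIR3 (yAT1254), and less so in yAT2554 and with SIR2 and SIR3 overexpressed. In pGPD-SIR3 the bins read 3.37 at 12 kb toward the end, 0.20 at 5 kb, 1.46 over the gene, 1.72 at 1 kb inward and 0.07 at 3 kb inward. In WT they read 0.69, -0.24, 0.47, 0.51 and -0.08. At 5 kb toward the end and over the gene, yAT2554 read 1.32 and 2.26, and SIR2 with SIR3 1.66 and 2.44. The same bins read 0.38 and 0.90 in yAT2476.

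**Figure D3:**
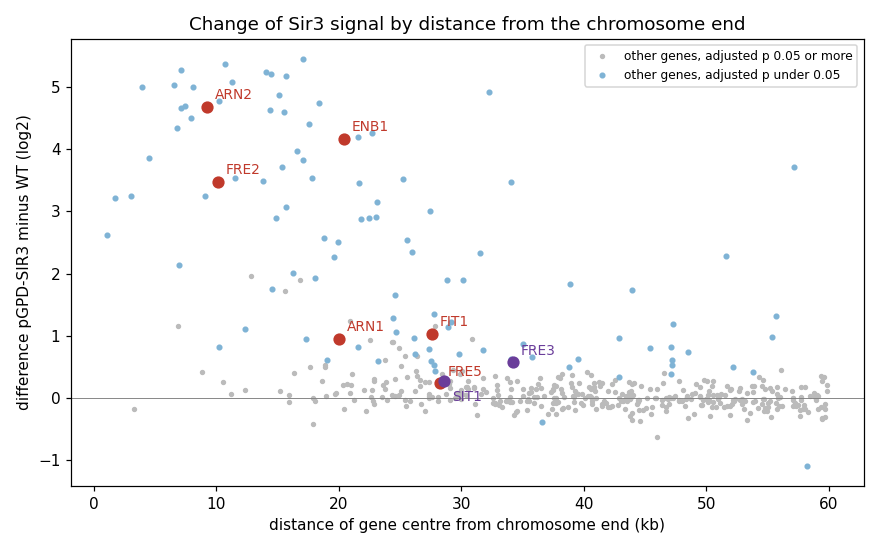
The pGPD-SIR3 minus WT difference in log2 enrichment (vertical axis) of genes centred within 60 kb of a chromosome end, against that distance in kb. Red points are the 6 genes and purple points are SIT1 and FRE3. ARN2, FRE2 and ENB1 stood between 3.48 and 4.68, ARN1 and FIT1 near 1, and FRE5 at 0.24.

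Genes at like distances from an end spanned a wide range of differences. Of 29 genes centred 5 to 15 kb from an end, the bin of ARN2 and FRE2, 23 rose in pGPD-SIR3, with a median difference of 3.54. Of 78 genes at 15 to 25 kb, 32 rose, and the median was 0.61 with quartiles of 0.09 and 2.56. ENB1, at 4.16, lay above the upper quartile of that bin and ARN1, at 0.95, between the quartiles. Of 104 genes at 25 to 35 kb, 25 rose, and the median was 0.19 with quartiles of 0.01 and 0.54. FIT1, at 1.04, lay above the upper quartile and FRE5, at 0.24, near the median.

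The study used the A2Q mutant of Sir3 to examine telomere clustering. With it, 5 of the 6 genes were lower than with the wild-type protein under the same promoter (pGPD-SIR3), against 7.72% of all genes called lower and 1.4% higher. Among the 389 genes within 50 kb of an end, 30.8% were called lower. ARN2 stood at 0.08 and -0.12, ENB1 at 0.16 and 0.23, ARN1 at -0.09 and -0.21, FRE2 at 0.09 and -0.06, FIT1 at 0.27 and 0.31 and FRE5 at 0.40 and 0.39. For the first 5 genes both A2Q arrays lay below both pGPD-SIR3 arrays. ARN2 fell by 5.99 ± 0.40 from pGPD-SIR3 (adjusted p = 4.33e-07), ENB1 by 4.59 ± 0.46 (adjusted p = 1.6e-05) and FRE2 by 3.99 ± 0.52 (adjusted p = 0.000163). FIT1 fell by 1.19 ± 0.17 (adjusted p = 0.000414) and ARN1 by 1.08 ± 0.11 (adjusted p = 1.73e-05). The FRE5 difference was -0.03 ± 0.10 (95% interval -0.25 to 0.20, adjusted p = 0.899). On the slide that held both groups the differences were -5.66 for ARN2, -4.28 for ENB1, -3.45 for FRE2, -1.003 for FIT1, -0.91 for ARN1 and -0.06 for FRE5.

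Against WT, limma called 0 of 6 genes in pGPD-SIR3-A2Q, with 0.517% of all genes higher and 1.08% lower, and 1 member had an unadjusted p under 0.05. That gene was ARN2, at -1.31 ± 0.40 (95% interval -2.18 to -0.44, adjusted p = 0.105). Both A2Q arrays lay below both WT arrays there, and with deposit as a block the same difference had an adjusted p of 0.0373. Beside it, COS8 fell by 3.88 from WT (adjusted p = 0.00161), from 4.46 to 0.58. The other differences from WT were -0.42 ± 0.46 for ENB1, -0.51 ± 0.52 for FRE2, -0.15 ± 0.17 for FIT1, -0.13 ± 0.11 for ARN1 and 0.21 ± 0.10 for FRE5. At the SIR3 gene, A2Q arrays read 0.55 on average, against 3.97 in pGPD-SIR3.

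The pGPD-SIR3 construct was measured in 3 strain backgrounds. ARN2 read 6.30 and 5.64 in yAT1254, 5.10 in yAT2554 and 4.68 in yAT2476. ENB1 read 5.09 and 4.47, then 4.69, then 4.37. FRE2 read 4.53 and 3.47, then 4.48, then 2.99. All 3 genes were above every WT, pADH-SIR3 and A2Q array in every background. ARN1 read 1.10 and 0.75 in yAT1254, 0.99 in yAT2554 and 0.58 in yAT2476, and FIT1 read 1.67 and 1.29, then 2.18, then 0.91. FRE5 read 0.38 and 0.45, then 0.16, then 0.17. With 1 array in each of yAT2554 and yAT2476, no difference between backgrounds was tested.

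The study also asked how Sir2 affects Sir3 spreading. Overexpression of SIR2 alone (1 array, assumed to vary like the other groups) left ENB1 at 0.83, FRE2 at 0.67, FIT1 at 0.47 and FRE5 at 0.06, each inside the WT range or close to it. ARN2 was at 2.32 and ARN1 at 0.61, both above the 2 WT arrays. ARN1 was 1 of 6 genes called, at 0.64 ± 0.13 above WT (adjusted p = 0.0327), where 1.25% of all genes were called higher and 1.67% lower. The ARN1 call was lost with the first deposit alone (adjusted p = 0.249), with replicate number as a block (adjusted p = 0.0538) and with arrays scaled to one spread (adjusted p = 0.055). ARN2 differed by 1.03 ± 0.49 (95% interval -0.04 to 2.09, adjusted p = 0.244). The strain background differs from WT, which cannot be told apart from SIR2 in this comparison.

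With SIR2 overexpressed beside pGPD-SIR3, ARN2 was lower and FIT1 higher than with pGPD-SIR3 alone. ARN2 read 4.55 and 3.99 with both proteins overexpressed, below both pGPD-SIR3 arrays and also below the yAT2476 array at 4.68. It fell by 1.70 ± 0.40 from pGPD-SIR3 (adjusted p = 0.0154). FIT1 read 2.58 and 2.12, above both pGPD-SIR3 arrays, with the yAT2554 array at 2.18 inside that range. It rose by 0.87 ± 0.17 (1.83-fold, adjusted p = 0.00629). The 1 gene higher and 1 lower of 6 compare with 7.53% of all genes higher and 6.59% lower. Within 50 kb of an end, 13.1% of genes were higher and 14.4% lower. FRE2 read 4.31, inside the pGPD-SIR3 range, and 2.04, below it, and differed by -0.82 ± 0.52 (adjusted p = 0.301). ENB1 differed by -0.57 ± 0.46 (adjusted p = 0.427), ARN1 by 0.04 ± 0.11 (adjusted p = 0.857) and FRE5 by -0.19 ± 0.10 (adjusted p = 0.225).

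Both calls were lost when certain single arrays were left out, and in fits that held fewer arrays. The fit with slide as a block kept only part of the first deposit, with 1 array of the group with both proteins. No slide held both groups. In that fit neither gene was called, with ARN2 at -1.12 and FIT1 at 1.40. With the first deposit alone, which also leaves 1 array of that group, ARN2 differed by -1.42 and was not called. The part of the slide was not tested apart from the dropped arrays. The ARN2 call was lost without replicate 2 of the group with both proteins (adjusted p = 0.118) or without pGPD-SIR3 replicate 1 (adjusted p = 0.117), and the FIT1 call without replicate 1 of that group (adjusted p = 0.0511) or without pGPD-SIR3 replicate 2 (adjusted p = 0.0733). Without replicate 1 of the group with both proteins, FRE2 was called at -1.96 (adjusted p = 0.00214). The genes beside FIT1 moved with it: HSP31, a chaperone gene 1.15 kb inward, rose from 0.73 to 1.98 (adjusted p = 0.000297) and STL1, a glycerol symporter gene 3.11 kb toward the end, from 0.33 to 1.74 (adjusted p = 0.000479). In yAT2554 these genes read 1.56 and 1.28. COS8 and COS9, beside ARN2 and FRE2, fell by 1.90 (adjusted p = 0.0247) and 2.08 (adjusted p = 0.00457). Of the 29 genes at 5 to 15 kb from an end, 15 were lower and 0 higher, with a median difference of -1.62. The strain background also differs between these groups, so that its part cannot be told apart from that of SIR2.

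The last comparisons followed Sir3 after release from nicotinamide. At 8 hours, ENB1 read 1.72 and 1.94 and FRE2 read 0.89 and 0.98, far below the pGPD-SIR3 arrays grown without the drug. ARN2 read 4.08 and 4.81. FIT1 read 0.63 and 0.61, inside the WT range, and ARN1 read 0.52 and 0.61. For all 5 genes neither release array reached the lower pGPD-SIR3 array. FRE5 read 0.45 and 0.14 and overlapped pGPD-SIR3.

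The falls from pGPD-SIR3 were 3.06 for FRE2 (SE 0.52, adjusted p = 0.00695), 2.96 for ENB1 (SE 0.46, adjusted p = 0.0047), 1.53 for ARN2 (SE 0.40, adjusted p = 0.0377) and 0.86 for FIT1 (SE 0.17, adjusted p = 0.0138). ARN1 differed by -0.36 ± 0.11 (adjusted p = 0.0619) and FRE5 by -0.12 ± 0.10 (adjusted p = 0.481). The 4 of 6 genes called lower compare with 4.82% of all genes lower and 3.42% higher. Near the ends the share was larger, with 18.3% of the 389 genes within 50 kb of an end called lower. The pGPD-SIR3 arrays belong to the first deposit and the release arrays to the later one. With deposit as a block, ENB1 was the 1 gene still called, at -1.98, with FRE2 at -2.38 (adjusted p = 0.0573), FIT1 at -0.78 (adjusted p = 0.0911) and ARN2 at -0.70 (adjusted p = 0.367). The ARN2 call was also lost with arrays scaled to one spread (adjusted p = 0.231). Without pGPD-SIR3 replicate 1 or without release replicate 1 no member was called, without release replicate 2 the count was 2, and without pGPD-SIR3 replicate 2 ARN1 was called at -0.54 (adjusted p = 0.0401).

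Among cells released from nicotinamide, the dot1 strain had lower signal at the 3 transporter genes and higher signal at FRE5. The 2 dot1 arrays read 1.20 and 1.37 at FRE5, against 0.45 and 0.14 in the release group with DOT1, and no other group's array exceeded 0.5. FRE5 rose by 0.99 ± 0.10 (1.99-fold, 95% interval 0.77 to 1.21, adjusted p = 5.36e-06), and was called under every alternative tried. ARN2 read 3.11 and 3.60, ENB1 0.56 and 0.72, and ARN1 0.13 and 0.21, each pair below both arrays with DOT1. ENB1 fell by 1.19 ± 0.46 (adjusted p = 0.0477), ARN2 by 1.09 ± 0.40 (adjusted p = 0.0378) and ARN1 by 0.40 ± 0.11 (adjusted p = 0.00974). FRE2 read 0.55 and 0.76, a difference of -0.28 ± 0.52 (95% interval -1.40 to 0.85, adjusted p = 0.679), and FIT1 read 0.49 and 0.62, a difference of -0.06 ± 0.17 (adjusted p = 0.774). The FRE2 interval pools all groups: its SD was 0.06 and 0.15 in the release groups with and without DOT1, and 1.61 with SIR2 and SIR3.

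These counts, 1 of 6 higher and 3 lower, stand beside a background of 27.9% of all genes called higher and 23.3% lower. For genes within 50 kb of an end the shares were 41.9% and 16.7%. Leaving out single arrays left 1 to 3 members called, with 1 left without dot1 replicate 1 or release replicate 2. The ENB1 call was lost each time, and also with a minimum of 1 probe (adjusted p = 0.056), with the authors' filled ratio (adjusted p = 0.0506) and when centred on probes over 50 kb from the ends (adjusted p = 0.0534). The rise at FRE5 was spread over the gene, with differences between 0.68 and 1.07 at its 7 probes measured on every array. Of the 104 genes at 25 to 35 kb from an end, 54 were higher in the dot1 arrays, with a median difference of 0.39. YOR385W, next to FRE5, read 0.44 against 0.29 (adjusted p = 0.493). Inward of ENB1, HPF1 rose from 1.02 to 3.05 (adjusted p = 0.000457), and toward the end BDS1 fell from 4.34 to 2.23 (adjusted p = 0.000511). COS9, inward of FRE2, fell from 2.49 to 0.75 (adjusted p = 0.00257). The part of the wider probe spread on the dot1 arrays in these differences was not tested beyond the fit with arrays scaled to one spread.

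**Figure D4:**
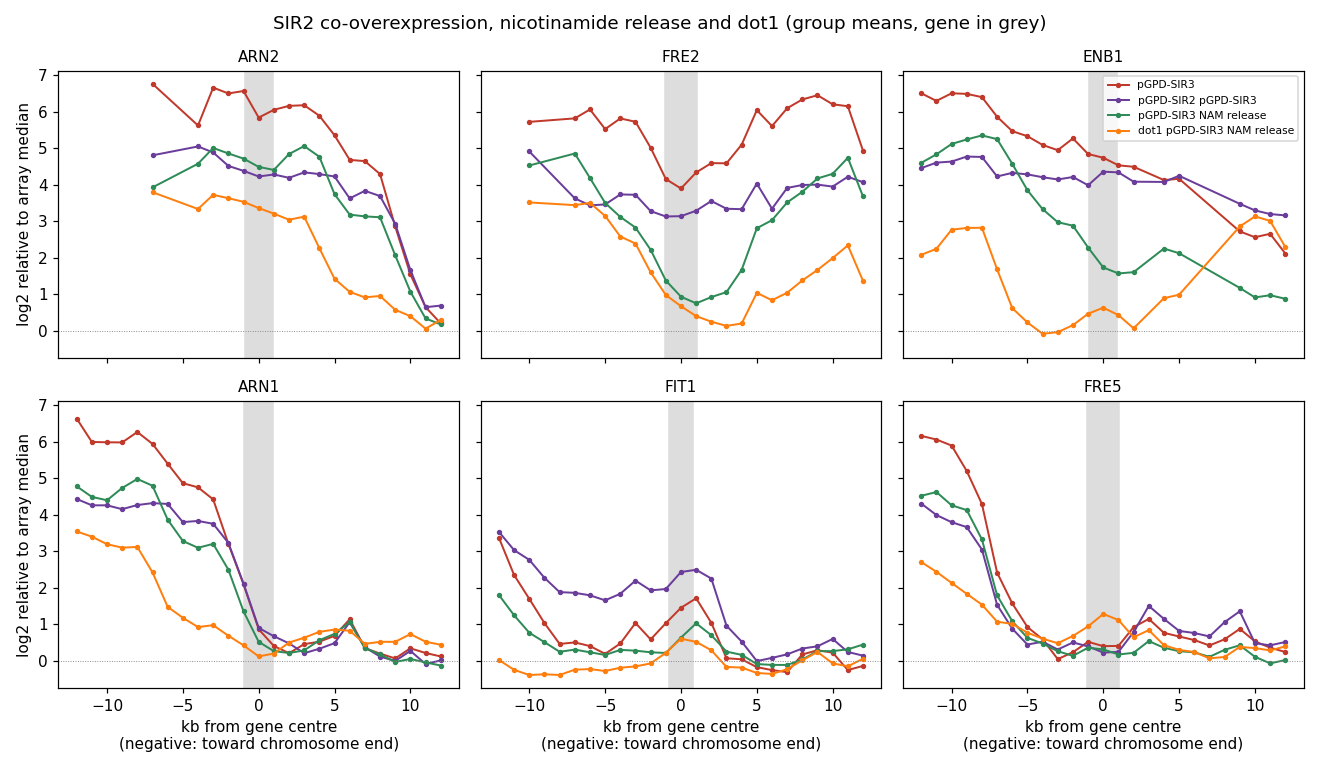
Mean log2 enrichment in bins of 1 kb within 12 kb of the centre of each gene, chromosome end to the left, coding region in grey, for pGPD-SIR3, pGPD-SIR2 pGPD-SIR3, NAM release and dot1 NAM release. At FRE5 the dot1 line read 1.29 over the gene against 0.32 in NAM release, and at FIT1 the line with both proteins read 2.44 against 1.46 in pGPD-SIR3.

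Single probes were tested in the same way. These counts, and those of covered probes below, take every probe inside the R64 coding regions, also those near the gene's ends. On chromosome 11, which holds FRE2, probes best fitted the genes when shifted by 225 bp. The last FRE2 probe (chr11:11041-11100) may therefore lie outside the gene. Of the 39 probes measured on every array, 32 were called higher in pGPD-SIR3 than in WT (7.01% of all probes), and these were all 6 of ARN1, 7 of ARN2, 6 of ENB1, 8 of FRE2 and 5 of FIT1. In pTEF-SIR3 the count was 27 (8.69% of all probes), with 4 of ARN1 and 2 of FIT1, and against pADH-SIR3 it was 26 (3.99% of all probes higher and 0.0246% lower). No probe was called in pADH-SIR3, where 0 of 39 compares with 1.27% of all probes higher. In A2Q against pGPD-SIR3, 32 were lower (8.54% of all probes). In A2Q against WT 2 were lower (2.94% of all probes), both in ARN2. With SIR2 alone 2 probes of ARN1 were higher (2.84% of all probes). With both proteins 4 of FIT1 were higher and 7 of ARN2 lower (7.01% and 4.33% of all probes). After release from nicotinamide 24 were lower (3.26% of all probes, with 3.44% higher). In the dot1 arrays all 7 of FRE5 were higher and 11 of ARN1, ARN2 and ENB1 lower (21.2% and 16.8% of all probes). Neighbouring probes share sonicated fragments and are not independent.

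Counted per array, a probe was taken as covered when it exceeded the array's median by 3 scaled MADs of the probes over 50 kb from every end. Of 40 probes in the 6 genes, 29 and 28 were covered in pGPD-SIR3, 26 and 27 in pTEF-SIR3, 28 in yAT2554, 25 in yAT2476 and 28 on both arrays with SIR2 and SIR3 overexpressed. The release arrays had 17 and 24, and the dot1 arrays 7 each. In pADH-SIR3 7 were covered on each array and with pGPD-SIR2 8. The WT arrays differed, with 8 covered on replicate 1 and 1 of 39 on replicate 2, and 0 were covered on both A2Q arrays. The share of probes over 50 kb from the ends covered in the same way was 0.642% to 5.02%. The threshold is a multiple of each array's own spread and so stood higher on the dot1 arrays.

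Ordered by group mean, ARN2 and ENB1 were highest in pGPD-SIR3 (yAT1254) and FRE2 in yAT2554, and all 3 were lowest in A2Q. For ARN2 the order ran from pGPD-SIR3 (5.97) through pTEF-SIR3 (5.24), yAT2554, yAT2476, NAM release (4.44), SIR2 with SIR3 (4.27), dot1 NAM release (3.35), pGPD-SIR2, pADH-SIR3 (2.20) and WT (1.29) to A2Q (-0.02). From pTEF-SIR3 down to SIR2 with SIR3, neighbours in that order overlapped or were single arrays. The arrays of pGPD-SIR3 and pTEF-SIR3, and those of pADH-SIR3 and WT, were only just separate, while SIR2 with SIR3 and dot1 NAM release, dot1 NAM release and pGPD-SIR2, and WT and A2Q were clearly apart. For ENB1 a wide gap separated the 5 groups at 4.19 to 4.78 from NAM release at 1.83, and the other 5 lay between 0.20 and 0.83. FRE2 had a like gap, from 2.99 in yAT2476 to 0.94 in NAM release. FIT1 was highest with SIR2 and SIR3 overexpressed (2.35), and FRE5 in the dot1 arrays (1.28), with all its other group means between 0.06 and 0.42.

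The 6 genes were next set beside the other iron genes. Of a list of 34 genes of iron uptake and its regulation, 26 were measured, and 20 of these are not among the 6. In pADH-SIR3 none of the 20 was called. In pTEF-SIR3 1 rose over WT, and that was SIT1 (the ferrioxamine B transporter), by 0.29 ± 0.07 (adjusted p = 0.0305). In pGPD-SIR3 2 rose. The background for these counts is the 7.77% and 6.45% of all genes given above. SIT1, centred 28.6 kb from an end, read 0.07 and -0.02 in WT against 0.36 and 0.22, a rise of 0.27 ± 0.07 (adjusted p = 0.0434). FRE3, a siderophore-iron reductase gene 3.88 kb inward of FRE5, read 0.01 and 0.12 in WT against 0.62 and 0.67, a rise of 0.58 ± 0.15 (adjusted p = 0.0351). The median difference of the 20 from WT was 0.01 in pGPD-SIR3 and 0.10 in pTEF-SIR3. FET4, the low-affinity iron transporter gene, lies 10.6 kb from an end but was not called in these comparisons.

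SIT1 and FRE3 were also higher in pTEF-SIR3 than in pADH-SIR3, by 0.39 (adjusted p = 0.0078) and 0.68 (adjusted p = 0.0241). In A2Q, FRE3 fell by 0.66 from pGPD-SIR3 (adjusted p = 0.0144) and FTH1, a vacuolar iron permease gene, rose by 0.35 (adjusted p = 0.0341). After release from nicotinamide SIT1 fell by 0.32 (adjusted p = 0.0233) and FRE4 by 0.32 (adjusted p = 0.039). With SIR2 alone, which is 1 array in a strain background other than that of WT, FTR1 and FET5 were 0.62 and 0.46 above WT. FET5 is a vacuolar oxidase gene. With SIR2 added to SIR3, 7 of the 20 rose, where 7.53% of all genes did. These were HMX1 (haem oxygenase) by 0.86 (adjusted p = 5.88e-05), FRE7 by 0.75, FTR1 by 0.49, SIT1 and FET3 by 0.44 each, and FRE1 and CTH1 by 0.28 each. The strain background also differs between these groups, and no slide held both. The part of background or slide in these rises was not tested. Alternative fits were followed for the members alone, so no call among the 20 was checked in that way. In the dot1 arrays 5 of the 20 rose and 3 fell, which is no larger a share than the 27.9% and 23.3% of all genes. The 5 were FET4 at 0.87 (adjusted p = 0.000109), with FET3 at 0.54, SMF1 (a manganese transporter gene) at 0.47, FET5 at 0.38 and AFT1 (an iron-responsive activator) at 0.24. FTR1, FRE4 and AFT2 fell by 0.49, 0.42 and 0.28.

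FIT2 and FIT3, the other mannoprotein genes of this family, had only 1 probe each and were not tested. The FIT2 probe (chr15:1059766-1059822) read 0.86 on average in WT, 1.02 in pADH-SIR3, 1.58 in pTEF-SIR3 and 1.51 in pGPD-SIR3. The FIT3 probe (chr15:1060719-1060774) read 0.43 in WT, 0.63 in pTEF-SIR3 and 1.475 in pGPD-SIR3, with its WT arrays ranging from -0.12 to 0.98. In the other pGPD-SIR3 strains the FIT3 probe read 0.64 (yAT2554) and 0.11 (yAT2476), both inside the WT range, while the FIT2 probe read 1.62 and 1.24.

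**Figure D5:**
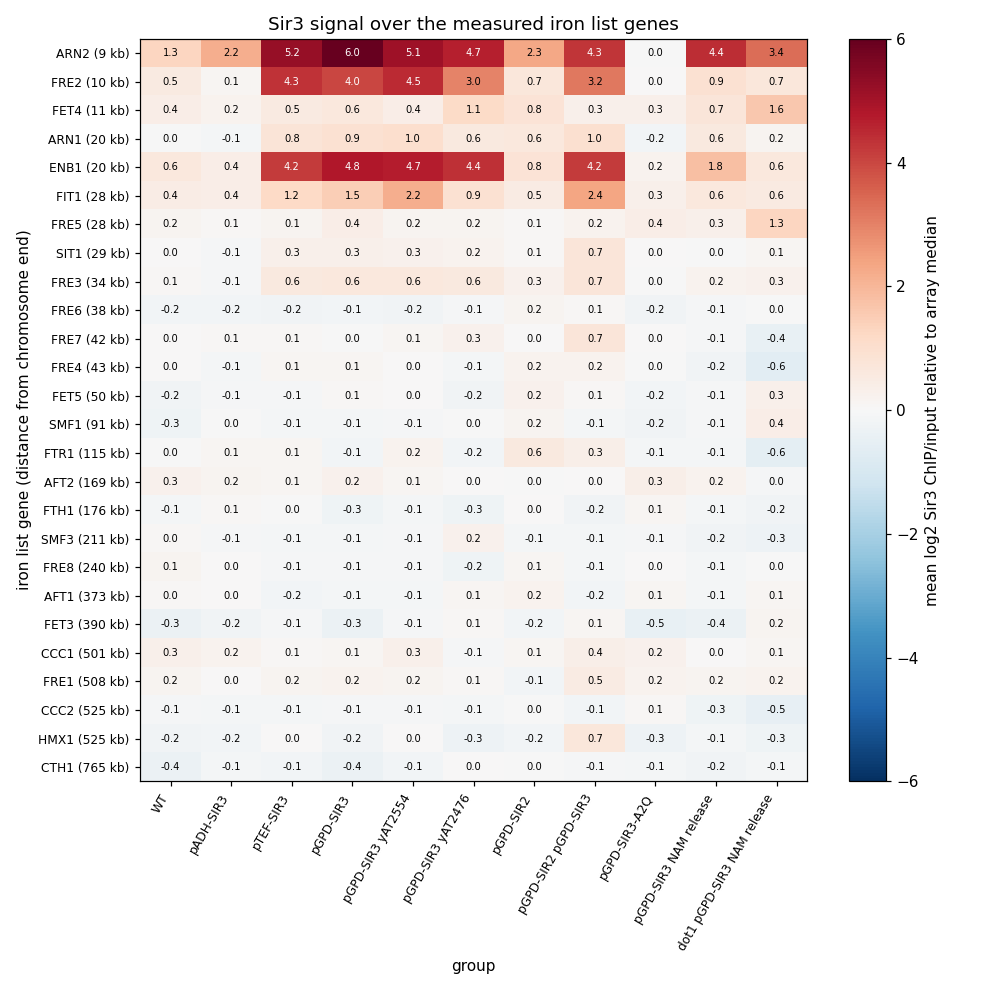
Heat map of mean log2 enrichment (colour scale in log2 units) of the 26 measured iron genes, as rows ordered by distance from the chromosome end, in the 11 groups as columns. ARN2, FRE2 and ENB1 ran from 0.52 to 1.29 in WT and from 4.00 to 5.97 in pGPD-SIR3, while FET4, 10.6 kb from its end, read 0.39 and 0.65 in these groups and 1.61 in dot1 NAM release.

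Across the 11 group means, ENB1 and FRE2 followed each other most closely among the 6 genes (Pearson r = 0.970). The other pairs without FRE5 lay between 0.678 and 0.877, and FRE5 had r between -0.241 and -0.011 with the other 5. These values are descriptions over points that share arrays. The genes on other chromosome arms with the most similar patterns to ARN2 were MHT1 (0.986), AYT1 (0.977) and YKL222C (0.967), and to ENB1 AGP3 and BDH2 (0.988 each) and IMA5 (0.983). For FRE2 they were DLD3 (0.964), RMD6 and AGP3 (0.960 each). All of these lie within 35 kb of an end. For ARN1 they were FRE3 (0.930), FOX2 (0.924) and HXT14 (0.911), and for FIT1 BNA2 (0.920), YLL056C and SHC1 (0.904 each). FRE5 was most like WHI4 (0.993), RPC82 and NUP192 (0.988 each), which read 1.26, 1.17 and 1.07 in the dot1 arrays. NUP192 lies 371 kb from its nearest end.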

How the data were processed

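Sir3 ChIP-chip arrays of S. cerevisiae were analysed from the files the authors deposited. Each file held a ratio of precipitated over input DNA per probe, a rescaled ratio with missing probes filled, and a score. The score, which the authors made as the ratio minus its mean over its SD on the array, was not used. On 5 arrays 1 to 7 deposited ratios lay at or below 0, so that the authors' linear values are not a pure ratio there, and these were set to missing. The dyes are given per the labels. The scanner, any background correction or spot filter, and the genome build of the probe positions were not given in the sources used here.

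Log2 of the unfilled ratio was taken and the median of chromosomal probes subtracted, with no other normalization (array medians ran from 0.0292 to 0.942 before centring). Probes at least 100 bp inside an R64 coding region (on chromosomes 10 and 11, 450 bp at the upper end, since their probes best fitted the genes when shifted by 250 and 225 bp) were averaged where at least 2 had values on all 19 arrays. This gave 4065 genes from 36515 probes measured on every array. On chromosome 6 the best shift was 375 bp, with a correlation of 0.100 against 0.037 without a shift. The 100 bp margin was kept there, and AGP3 and FET5 lie on that chromosome. Gene names and coordinates came from RefSeq R64. Differences were fitted with limma 3.58.1 in R 4.3.3, with 1 mean per group over all arrays (8 residual degrees of freedom) and Benjamini-Hochberg adjustment over all genes, or all probes, within each of 11 comparisons. The script was tested on simulated data. Tables were made with pandas 2.3.3 and numpy 2.4.6 under Python 3.11.15, and figures with matplotlib 3.10.9.

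The text names the 6 genes, called genes of the iron list with SIT1, FRE3, FIT2 and FIT3, the nearest measured gene on either side, the 3 most correlated genes on other chromosome arms, and SIR3. FET4 (in pGPD-SIR3) was chosen after its values were seen. The 6 genes and the lists were chosen with earlier results of these data known. Alternatives covered the gene margin, the probe minimum, the filled ratio, the centring, the scaling, blocks for replicate number, deposit and slide, the first deposit alone, and leaving out each replicate.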

Additional observations from a re-analysis of the deposited data

How the results depend on the processing

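The number of the 6 genes called was 5 in pTEF-SIR3, pGPD-SIR3 and A2Q against pGPD-SIR3, and leaving out each array gave 4 to 5, 5 to 5 and 5 to 5. It was 5 for pTEF-SIR3 against pADH-SIR3 (4 to 4 with an array left out, 3 with the first deposit alone). A2Q against WT gave 0, and 1 with deposit as a block. SIR2 against WT gave 1, and 0 with arrays scaled, with the replicate block and with the first deposit alone. SIR2 with SIR3 against pGPD-SIR3 gave 2, with 1 from the first deposit, 0 with slide as a block, and 1 to 2 with an array left out. NAM release gave 4, with 1 under the deposit block and 0 to 4 with an array left out, and the dot1 comparison 4, with 1 to 3. The cause of these changes was not tested, beyond the smaller number of arrays where arrays were dropped. Over all groups the replicate numbers did not pair the arrays (correlations of same-numbered deviations from -0.335 to 0.637). In pADH-SIR3, pTEF-SIR3 and SIR2 with SIR3, where numbers 1 and 2 also stand for the first and the later deposit, the 3 correlations were 0.218 to 0.637. With the replicate block pTEF-SIR3 against pADH-SIR3 still had 5 members called. The only count of members that moved was that of SIR2 against WT, from 1 to 0. Over the 804 values of single genes under alternatives, 754 stayed on the same side of the threshold, 47 lost the call and 3 gained it. Among the 754, 31 values, uncalled in the main fit and under the alternative, changed sign, and no called value did.

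At an adjusted p under 0.01, called probes went from 2 to 0 in A2Q against WT and in SIR2 against WT, from 11 to 5 with SIR2 and SIR3, from 24 to 14 in NAM release and from 18 to 8 in dot1. The mean share of covered probes at 2 scaled MADs was 27.7% in WT, 24.0% in pADH-SIR3, 72.5% in pTEF-SIR3, 78.8% in pGPD-SIR3, 57.5% in pGPD-SIR2, 75% with SIR2 and SIR3, 2.5% in A2Q, 65% in NAM release and 35% in dot1. At 4 it was 62.5% in pTEF-SIR3, 65% in pGPD-SIR3, 68.8% with SIR2 and SIR3 and 37.5% in NAM release. The corresponding shares at 3 were 11.3%, 17.7%, 66.2%, 71.2%, 20%, 70%, 0%, 51.2% and 17.5%.

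Counts over all genes moved more. They ran from 20 to 297 (main 35) in pADH-SIR3, 123 to 713 (352) in pTEF-SIR3, 97 to 816 (300) in pGPD-SIR3, 70 to 194 (149) for pTEF-SIR3 against pADH-SIR3, 0 to 47 (19) for pGPD-SIR3 against pTEF-SIR3, 9 to 713 (65) in A2Q against WT, 203 to 474 (371) in A2Q against pGPD-SIR3, 0 to 308 (119) with SIR2, 39 to 710 (574) with SIR2 and SIR3, 22 to 573 (335) in NAM release and 1338 to 2480 (2082) in dot1. In A2Q against WT the split was 21 higher and 44 lower, and 9 and 45 when centred on probes over 50 kb from the ends, and 32 and 24 with arrays scaled.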
